A study of Ovis aries with 32 samples.

Results

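PEG10 was read by a single 60-base probe (A_70_P043661) of the 15008 probes on an Agilent sheep array, and its intensity was followed in 2 parts of the heart of lambs 14 days old, the left ventricular free wall (LV) and the interventricular septum (IVS). The files carry no gene name for this probe, and 0 probes are named PEG10 in them. The name was assigned because the probe is the only 1 of 8807 in the deposited LV matrix whose CORT to Control ratio and p both equal those listed for PEG10 in the study's supplement within rounding, whereas 11 probes had that ratio alone. The probe was thus chosen by its LV difference between CORT and Control lambs, and that difference is a description that was not tested.

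The CORT lambs were born to ewes that received cortisol overnight, at 0.5 mg/kg/day, from late gestation to delivery. The ewes of the Control lambs carried catheters without any infusion. There were 8 CORT and 8 Control lambs in each tissue, giving 32 arrays with 1 sample each. Per the study's methods, each group of ewes bore a twin pair. The Control lambs therefore do not all come from separate ewes, and the CORT lambs may not. The labels give neither the sex of a lamb nor which LV and IVS samples come from the same lamb. The tissues are pieces of whole myocardium, in which fewer cells of a type and less RNA per cell cannot be told apart.

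PEG10 (paternally expressed gene 10) is an imprinted gene, expressed from the allele inherited from the father. It derives from the gag and pol genes of an ancient retrotransposon, keeps the frameshift that joins its reading frames, and encodes a protein that can assemble into capsid-like particles. It is best known for its part in placental development, is abundant in fetal tissues and in several tumors, and lies beside SGCE, which is imprinted in the same direction. Cortisol crosses from ewe to fetus in part, and late gestation is the period when the heart muscle cells of the sheep leave the cell cycle.

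The sequence of the probe is shown because the files give no gene name for it. It was not compared with a PEG10 transcript, so the name rests on the matched LV ratio and p alone.

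PEG10 probe A_70_P043661: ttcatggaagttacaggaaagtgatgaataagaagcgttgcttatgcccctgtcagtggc

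The probe has a GC content of 45%, beside a median of 43.3% over all probes. Its 60 bases were designed from a sheep expressed sequence tag that the files list as unmapped, starting at base 627 of that tag. No genome position, exon or untranslated region is given here for that reason. On each strand 1 of the possible reading frames is free of stop codons over the 60 bases. With 12 bases as the unit, 10 other probes of the array share a run with it, and with 15 bases 0 do.

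The spot of the PEG10 probe was measured on every array. Its mean intensity lay between 337.3 and 868.9 in scanner units, 8.13 to 25.09 times the local background. The scanner software marked it as well above background, not saturated and not an outlier on all 32 arrays. Between 60 and 66 pixels were read per spot, with a pixel coefficient of variation of 15.1 to 24.1%. Array to array, the median spot intensity lay between 131.2 and 332.4, and 59.7 to 80.4% of the probes were well above background. Precision is limited by how few arrays a group holds. The values below are log2 intensities after quantile normalization within a tissue unless another scale is named.

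In the LV, the PEG10 probe was brighter on average in CORT than in Control lambs. The Control lambs lay between 8.55 and 9.42, with a median of 9.19. The CORT lambs lay between 9.26 and 9.70, with a median of 9.41. The groups overlap in their upper part: 4 Control lambs lay below the lowest CORT lamb, and 4 CORT lambs lay above the highest Control lamb. The Control mean was 9.11 ± 0.32 (SD, n = 8), against a CORT mean of 9.45 ± 0.17 (SD, n = 8). The log2 difference was 0.33 (SE 0.12), which is a ratio of 1.26. All 8 CORT lambs were above the Control mean. The difference exceeds the pooled SD of 0.257. But it is the contrast that named the probe, so no p or confidence interval is given, and the counts beside it only describe it. Of the 11518 LV probes tested, 175 (1.52%) had a larger difference in either direction.

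In the IVS, whose arrays had no part in naming the probe, the mean difference was of similar size and the spread was wider. Per the study's methods, LV and IVS pieces were cut from the same hearts. The IVS values are therefore not independent of the lambs whose LV values named the probe. The Control lambs lay between 8.29 and 9.53, with a median of 9.20. The CORT lambs lay between 8.84 and 9.62, with a median of 9.33. Here the ranges overlap over most of their length, with 3 Control lambs below the lowest CORT lamb and 2 CORT lambs above the highest Control lamb. The Control mean was 9.02 ± 0.50 (SD, n = 8), against a CORT mean of 9.33 ± 0.25 (SD, n = 8). The log2 difference of 0.31 (SE 0.18, 95% confidence interval -0.077 to 0.699; a ratio of 1.24) was less than the spread between Control lambs, and 7 of 8 CORT lambs were above the Control mean. It did not pass either test: p was 0.110 in limma before adjustment, 0.993 after Benjamini-Hochberg adjustment over 11685 probes, and 0.138 in a two-sided exact permutation test over all 12870 assignments. Of the IVS probes, 566 (4.84%) had a larger difference in either direction.

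**Figure D1:**
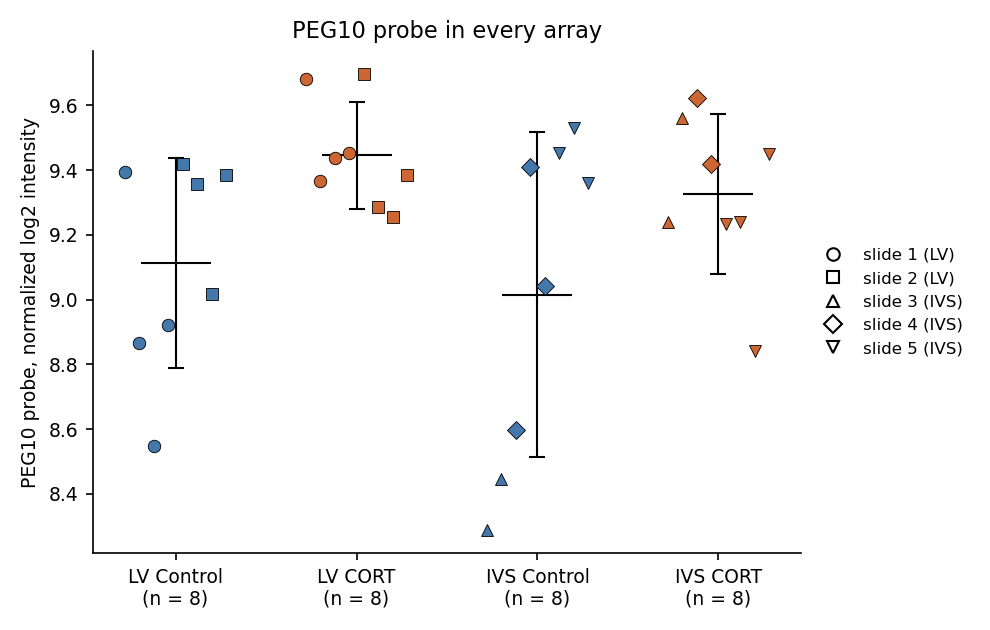
Normalized log2 intensity of the PEG10 probe on each of the 32 arrays (y axis), by tissue and treatment (x axis). Each symbol is 1 array and its shape marks the slide; the horizontal bar is the group mean and the whiskers are 1 SD (n = 8). The 3 lowest LV values are Control lambs of slide 1, and the 3 lowest IVS values are Control lambs of slides 3 and 4.

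The 2 differences lie close together, 0.02 apart with a standard error of 0.22, an interval too wide to say that the tissues respond alike. That standard error takes the LV and IVS samples as separate lambs, although the study took both tissues from the same hearts. Over all arrays, the Control lambs varied more than the CORT lambs. The SD of the Control group was 1.96 times that of the CORT group in the LV and 2.04 times in the IVS. The lowest Control lambs lie below every CORT lamb in both tissues, while the highest of them lie within the range of the CORT lambs. In the IVS both statements rest on the 3 arrays of the highest median spot intensity: without them the Control SD was 0.188 (n = 5) against 0.246 in CORT lambs, and the lowest Control lamb, at 9.04, was above the lowest CORT lamb, at 8.84.

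An array slide holds several arrays that are scanned together, and the slides of these samples held both groups, so the difference could be taken within each slide. On slide 1 of the LV, the 4 Control lambs were at 9.40, 8.87, 8.55 and 8.92. The 4 CORT lambs of that slide were at 9.68, 9.37, 9.44 and 9.45, a difference of 0.55 (SE 0.16). Only 1 Control lamb of slide 1 reached the range of its CORT lambs. On slide 2, the Control lambs were at 9.42, 9.36, 9.02 and 9.38. The CORT lambs of slide 2 were at 9.70, 9.29, 9.26 and 9.38, a difference of 0.11 (SE 0.16). There the groups overlap, and the difference is below its standard error. The LV difference was thus positive on both slides and came mainly from slide 1, and 0.33 (SE 0.12) with slide as a block.

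In the IVS the slides did not share a direction. On slide 3, the Control lambs were at 8.29 and 8.44, and the CORT lambs at 9.24 and 9.56. The groups of slide 3 do not overlap, and the difference was 1.03 (SE 0.25). On slide 4, the Control lambs were at 8.60, 9.41 and 9.04, and the CORT lambs at 9.42 and 9.62. The highest Control and the lowest CORT lamb of slide 4 all but touch, and the difference was 0.50 (SE 0.23). On slide 5, the Control lambs were at 9.45, 9.53 and 9.36, and the CORT lambs at 9.23, 9.24, 8.84 and 9.45. The direction turned on slide 5, at -0.26 (SE 0.19), with 3 of the 4 CORT lambs below every Control lamb. An F test of treatment by slide in limma, chosen after these values were seen, gave an unadjusted p of 0.00175 and an adjusted p of 0.144 for PEG10. Of the 11607 probes in that test, 19.6% had an unadjusted p under 0.05, so a difference between slides was common on the IVS arrays. With slide as a block the IVS difference was 0.31 (SE 0.18, limma p 0.101). Without slide 5 it was 0.70 (SE 0.22, limma p 0.0104), and without slide 3 it was 0.07 (SE 0.17, limma p 0.680).

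**Figure D2:**
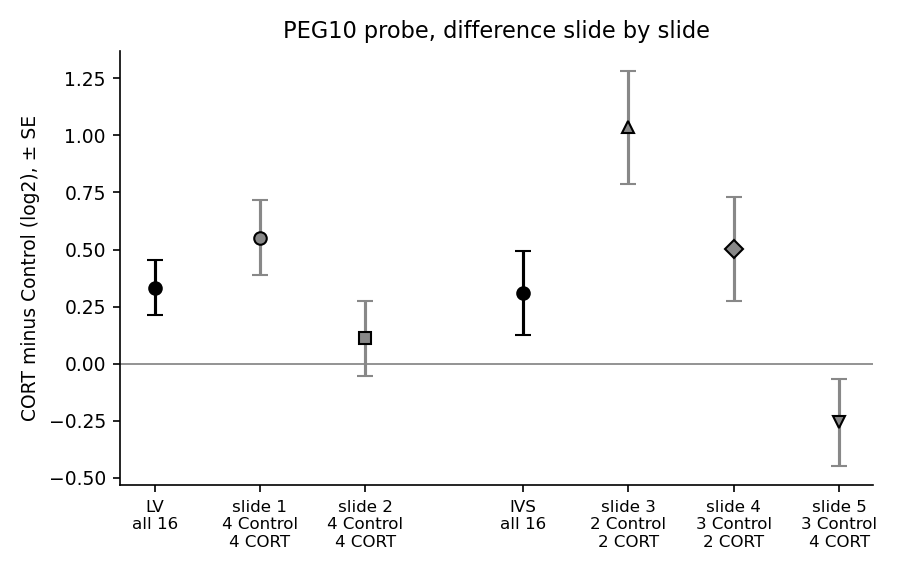
Difference of the PEG10 probe between CORT and Control lambs in log2 units (y axis), for all 16 arrays of a tissue (black) and for each slide (grey), with the number of arrays beside each slide (x axis). Whiskers are 1 standard error, from limma for the whole tissue and from the SD pooled over the slides of the tissue for a slide. The slide values run from 1.03 on slide 3 to -0.26 on slide 5.

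The 3 lowest values of PEG10 in the IVS came from the 3 IVS arrays of the highest median spot intensity, which are Control replicates 1, 2 and 3. Their medians were 265.9, 332.4 and 248.6, whereas no other IVS array exceeded 217.5. Before normalization the PEG10 spot was at 404.3, 591.6 and 502.4 in scanner units on them, beside a median of 530.5 over the IVS Control arrays, so that the spot was dim on replicate 1 and near or above the median on the others. The lowest CORT value, 8.84, was likewise on the brightest IVS CORT array. Without the 3 brightest arrays, an alternative chosen after seeing the data, the IVS Control mean was 9.36 ± 0.19 (SD, n = 5) and the difference turned to -0.033 (SE 0.13, limma p 0.798). With arrays weighted by quality it was 0.10 (SE 0.16, limma p 0.517). With background correction and no normalization between arrays, the differences were 0.08 (SE 0.24, limma p 0.733) in the IVS and 0.11 (SE 0.21) in the LV. In the LV, the median spot intensity spanned 139.3 to 217.0 in Control and 152.8 to 201.2 in CORT lambs, and leaving out any 1 LV lamb left a difference between 0.25 and 0.38.

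**Figure D3:**
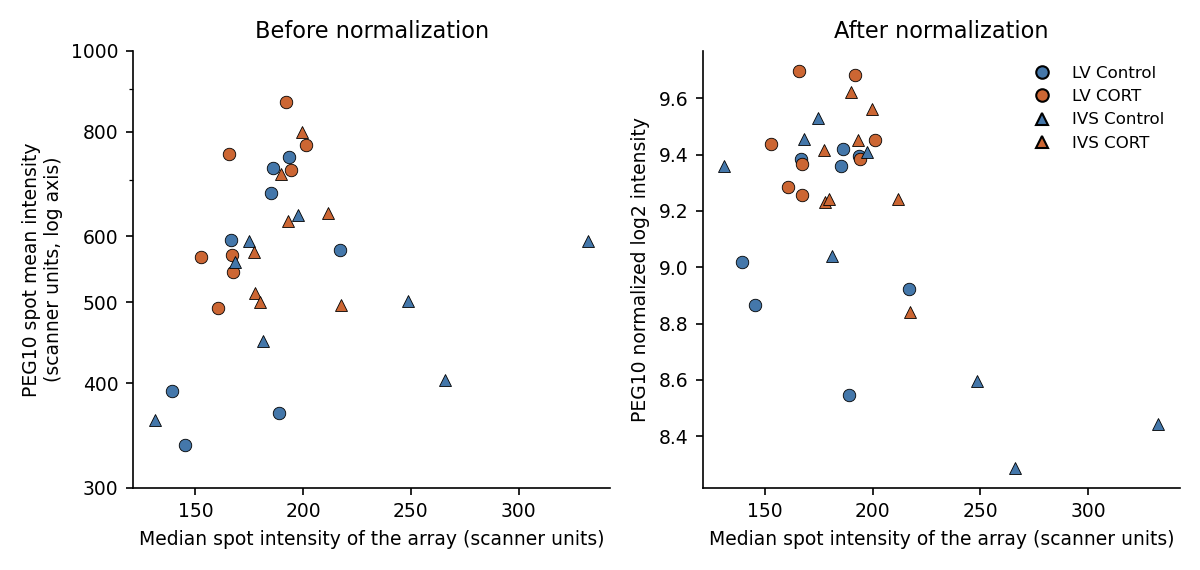
Mean intensity of the PEG10 spot before normalization (left, scanner units on a log axis) and its normalized log2 intensity (right), against the median spot intensity of the array (x axis), for the 32 arrays. Circles are LV and triangles IVS, blue Control and orange CORT; the 3 arrays with a median above 217.5 have spots between 404.3 and 591.6 on the left and the lowest IVS values on the right.

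The level of the PEG10 probe was then compared between tissues, averaged over treatment, which is not the contrast that named it. In the LV the Control lambs varied more than the CORT lambs, so this average is not fully independent of that contrast. With all 32 arrays normalized together, the LV arrays lay between 8.62 and 9.77 and the IVS arrays between 8.22 and 9.55, so the tissues overlap widely. The mean was 9.35 in the LV and 9.10 in the IVS, a log2 difference of -0.26 (SE 0.11, 95% confidence interval -0.486 to -0.025), and 11 of 16 IVS arrays were below the LV mean. This did not pass after adjustment over 12344 probes (limma adjusted p 0.137, unadjusted p 0.0308), while 1392 probes, 11.3% of those tested, did. The difference was -0.24 within Control and -0.27 within CORT lambs. It was smaller with each tissue normalized by itself (-0.11, limma adjusted p 0.508), with no normalization between arrays (-0.12) and for slide 5 against the LV (-0.13). LV and IVS arrays lay on separate slides, so tissue and slide cannot be told apart. The fit also took the 32 arrays as separate lambs, since the labels do not pair the tissues. The order from the brightest group down was LV CORT (9.52), IVS CORT (9.25), LV Control (9.19) and IVS Control (8.94), with SDs of 0.166, 0.246, 0.326 and 0.498. The IVS CORT and LV Control groups, and the LV Control and IVS Control groups, do not differ beyond their spread; the step from LV CORT to IVS CORT, 0.27, is slightly larger than either SD.

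Other genes listed as imprinted were looked at next. Allele-specific expression was not measured here, so whether they are imprinted in lamb heart is not known from these data. Of a list of 59 imprinted genes without PEG10, 9 are named on the array, and 8 were bright enough to test in the LV and 7 in the IVS. None of them had an unadjusted p under 0.05 in limma in either tissue, where 3.85% of all LV probes (444, of which 0 after adjustment) and 3.59% of all IVS probes (419, of which 0 after adjustment) did. By direction these were 1.66% higher and 2.2% lower in the LV, and 1.39% higher and 2.19% lower in the IVS. In the LV, 4 were higher and 4 lower in CORT lambs, with a median difference of -0.02. In the IVS, 4 were higher and 3 lower, with a median of 0.03. The median over all probes tested was 0.00146 in the LV and -0.00818 in the IVS. The maternal genes of the cell cycle and of growth restraint did not pass, and neither did the paternal growth factor IGF2. Among the former, the kinase inhibitor CDKN1C differed by -0.12 in the LV and 0.05 in the IVS. The brightest probe of IGF2R, the receptor that clears IGF2, differed by 0.07 and -0.11. Another IGF2R probe gave 0.05 and -0.12, while a dimmer one went the other way, at -0.09 in the LV and 0.10 in the IVS.

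For the brightest IGF2 probe, LV Control lambs were at 14.42 ± 0.41 (SD, n = 8) and LV CORT lambs at 14.46 ± 0.28 (SD, n = 8), a log2 difference of 0.03 (SE 0.16). In the IVS that probe differed by 0.03 (SE 0.15). A second IGF2 probe gave 0.22 (SE 0.19, limma p 0.265) in the LV and 0.29 (SE 0.20, limma p 0.162) in the IVS. The differences of the IGF2 probes were unlike in size, which was not tested. For both probes the difference was below the SD of each group. MEG3, a maternally expressed noncoding RNA also known as GTL2, differed by 0.13 (SE 0.15) in the LV and by -0.17 (SE 0.11) in the IVS. Its probe was well above background on only 7 of 16 LV and 8 of 16 IVS arrays. CD81, DIRAS3 and WT1 lay between -0.06 and 0.12 in the tissues where they were tested. The probes of BEGAIN were too dim to test.

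In the reference gene table (ARS-UI_Ramb_v3.0), SGCE precedes PEG10 and PPP1R9A, PON1, PON3, ASB4, PON2 and PDK4 follow it, with uncharacterised loci between them. SGCE, the paternally expressed partner that shares the control region of PEG10, has no named probe here. Of 16 genes of the region, 3 are named on the array, and 0 of these had an unadjusted p under 0.05 in limma in either tissue. PON2 is counted here and also among the imprinted genes above. PON2, a paraoxonase gene at the far side of PEG10, had an LV Control mean of 9.54 ± 0.13 (SD, n = 8) and an LV CORT mean of 9.54 ± 0.16 (SD, n = 8). Its log2 difference was 0.00258 (SE 0.074) in the LV and 0.03 (SE 0.068) in the IVS. GNG11, a G protein subunit gene, differed by -0.02 in the LV and -0.03 in the IVS. COL1A2, a collagen gene of the same region, differed by -0.21 (SE 0.11, limma p 0.0693) in the LV, where 0 of 8 CORT lambs were above the Control mean, and by -0.02 (SE 0.15) in the IVS. The LV median over the 3 genes was -0.02 and the IVS median was -0.02.

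**Figure D4:**
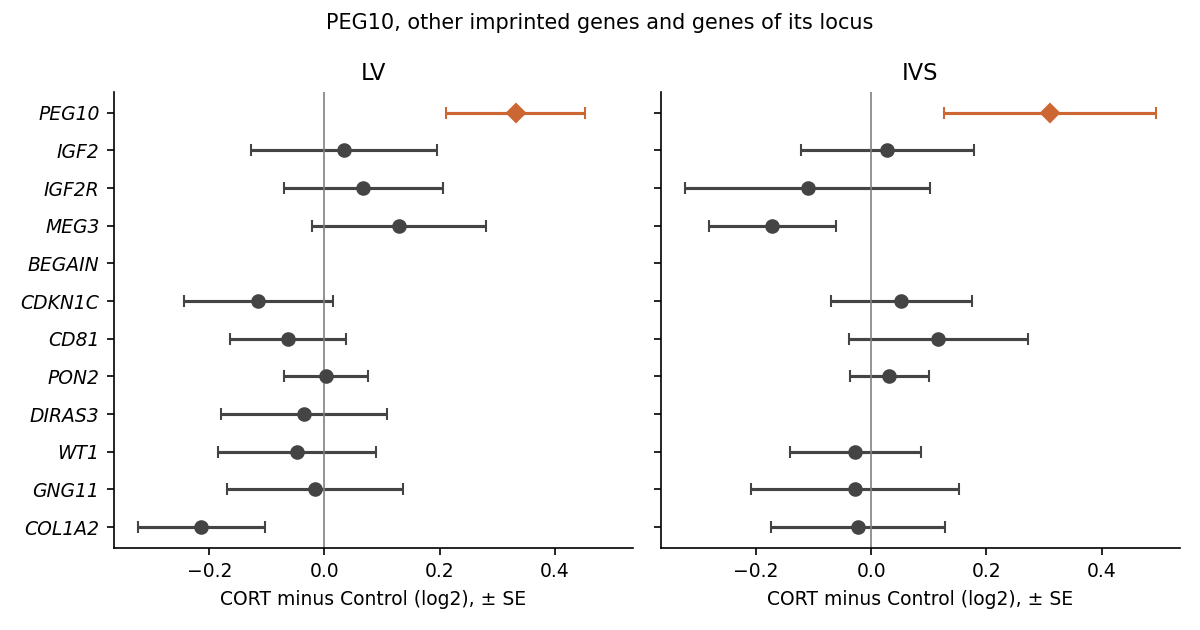
Log2 difference between CORT and Control lambs (x axis) of the PEG10 probe (orange), of 9 other imprinted genes and of genes beside PEG10 (grey, brightest probe of each gene), in the LV (left) and IVS (right). Whiskers are 1 standard error from limma, and an empty row is a gene whose probe was too dim to test. No brightest probe of the other genes lies above 0.13. A second IGF2 probe, not drawn, was at 0.22 in the LV and 0.29 in the IVS. PEG10 was chosen for its LV difference, so its place apart from the other genes there is no result.

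Among 30 other genes derived from retrotransposon gag sequences, 0 are named on the array. Among genes whose products act on or with PEG10, MYC was tested. MYC, a transcription factor reported to bind the PEG10 promoter, differed by 0.00668 (SE 0.18) in the LV and by -0.37 (SE 0.23, limma p 0.119) in the IVS.

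Markers of the cell types of the heart were counted beside PEG10. Myoglobin (MB), the only named marker of cardiac myocytes among 13, was at 18.03 in LV Control and 18.05 in LV CORT lambs and is among the brightest probes of the array. Of 4 named fibroblast markers, 1 was lower in LV CORT lambs at an unadjusted p under 0.05, as were 2.2% of all LV probes: COL3A1, a fibrillar collagen gene, fell by 0.28 (SE 0.10, limma p 0.0131, adjusted p 0.999). The mean log2 intensity over the 4 fibroblast markers lay between 9.84 and 10.69 in LV Control and between 9.70 and 10.12 in LV CORT lambs, and its part in the LV difference of PEG10 was not tested. In the IVS, 0 of the 4 passed on their brightest probe, but a second probe of the collagen gene COL1A1 was higher in CORT lambs by 0.35 (SE 0.14, limma p 0.0199, adjusted p 0.993; 8 of 8 CORT lambs above the Control mean). No marker of smooth muscle (1 tested), endothelial cells (3 in the LV, 4 in the IVS), adipocytes (4 and 3), erythroid cells (1) or leukocytes (2) passed on its brightest probe in either tissue, while a second probe of the monocyte gene CD14 was lower in LV CORT lambs by a log2 difference of -0.16 (limma p 0.0338), and no marker of skeletal muscle or of neural cells is named on the array. HBB, a hemoglobin gene, varied most among these, with an SD of 1.82 in LV Control and 2.28 in IVS Control lambs. It was the only erythroid marker named of 5 listed, and it differed by 0.24 (SE 0.70) in the LV. HBA1, also on that list, has no named probe here, and the study lists it as lower in LV CORT lambs.

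The named probes whose pattern was most like that of PEG10 over the 32 arrays, each tissue centred on its own mean, were those of PPIA (Pearson r 0.80), SLC25A5 (0.80), LGALS1 (0.79, and 0.74 for a second probe) and ATP5MC1 (0.78). PPIA encodes a peptidyl-prolyl isomerase, SLC25A5 a mitochondrial ADP/ATP carrier, LGALS1 a galectin, and ATP5MC1 a subunit of the mitochondrial ATP synthase. The least like were both probes of B2M, the light chain of the class I major histocompatibility complex (-0.77 and -0.77), and EIF4A2, a translation initiation factor (-0.69). These points share the array and its normalization, and 81 of 11211 probes had an r above 0.7. Without the 3 brightest IVS arrays the values over 29 arrays were lower in size: 0.53 for PPIA, 0.58 for SLC25A5, 0.61 and 0.65 for LGALS1, 0.55 for ATP5MC1, -0.54 for both probes of B2M and -0.39 for EIF4A2. The probe most like PEG10 of all (A_70_P018086, r 0.86 over 32 arrays and 0.74 over 29) has no gene name in the files. It was higher in CORT lambs by 0.53 in the LV and 0.64 in the IVS. This probe was picked for its likeness to PEG10, with no centring on treatment. A difference in the same direction is thus partly built in, and it was not tested.

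The size of the PEG10 difference under other ways of processing the arrays was followed last. Over 13 alternatives the LV difference, the contrast that named the probe, lay between 0.11 and 0.40, positive in each. Over 17 alternatives the IVS difference lay between -0.033 and 0.70, with limma p between 0.0104 and 0.798. In the matrix that the authors deposited, the LV difference was 0.35 (SE 0.12) and the IVS difference was 0.34 (SE 0.19, limma p 0.0878).

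**Figure D5:**
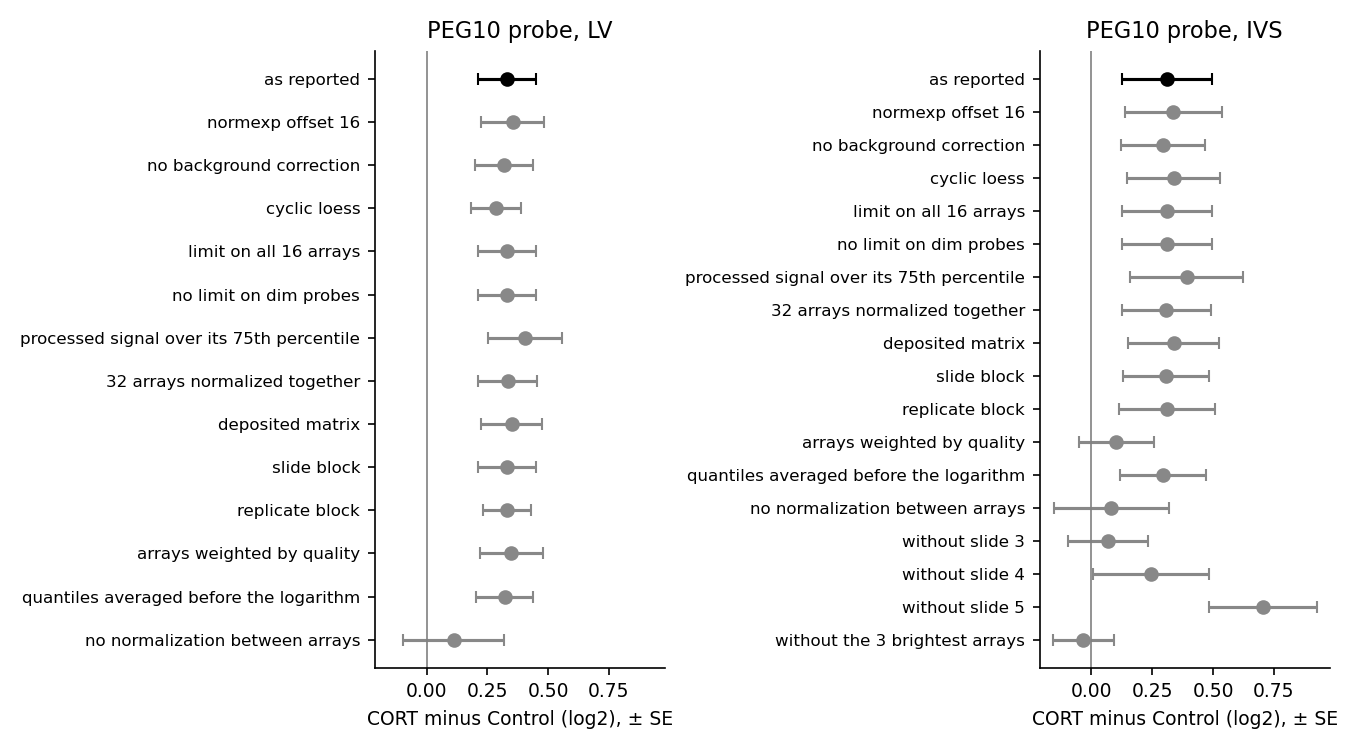
Log2 difference of the PEG10 probe between CORT and Control lambs (x axis) as reported (black) and under each alternative way of processing (grey), in the LV (left) and IVS (right), with 1 standard error from limma. The LV values stay above 0, from 0.11 to 0.40, and the IVS values run from -0.033 to 0.70.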

How the data were processed

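RNA of the LV and IVS was hybridised to 1-colour Agilent sheep arrays. The authors deposited the scanner output (Feature Extraction 10.1.1.1), which holds spot and background intensity, and a log2 matrix for either tissue that they had corrected for background, normalized by quantiles and stripped of dim probes. For the values given here, mean intensity and median local background were corrected by normexp (offset 50), and log2 values were quantile normalized over the 16 arrays of a tissue in limma 3.58.1 (R 4.3.3, statmod 1.5.0). Control spots and outlier-marked spots were left out. The tested probes exceeded the 95th percentile of 77 negative controls by over 10% on 8 or more arrays. Groups come from the labels. CORT and Control lambs were compared by lmFit and eBayes, two-sided, with Benjamini-Hochberg adjustment, and the scripts were tested on simulated data.

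The gene PEG10, the gene lists (imprinted, PEG10 locus, gag-derived, PEG10 partners, cell type markers) and the tests were chosen with earlier results of these data known. Names come from the array annotation and from a table of 35057 RefSeq sheep genes, which name 1343 probes and 833 symbols; the brightest probe stands for a gene. A member of the PEG10 partner list is not reported here. Named are listed genes with an unadjusted p under 0.05, a few chosen by role, further list members by value, and the 5 named probes most and 3 least like PEG10. The PEG10 name was traced through fold changes and p-values in the study's supplement, which were used for that and for the direction of HBA1. Of 259 genes read from it, 241 had exactly 1 matching probe. The alternatives covered background correction, normalization, the brightness limit, the deposited matrix, slide, replicate number, array weights and single lambs. Figures were drawn with matplotlib 3.10.9 under Python 3.11.15.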

Additional observations from a re-analysis of the deposited data

Results flagged for a closer look

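The IVS difference of PEG10 between CORT and Control lambs varied from slide to slide, at 1.03 on slide 3, 0.50 on slide 4 and -0.26 on slide 5. A limma F test of treatment by slide, chosen after these values were seen, gave an unadjusted p of 0.00175 and an adjusted p of 0.144. Of the 11607 probes in that test, 19.6% had an unadjusted p under 0.05.

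Among 14 genes in 46 groups of 8 lambs, 5 groups held 1 lamb far from the other 7, where chance gives about 1 in 20 groups. IGF2R was at 8.70 in IVS Control replicate 8, with the others between 9.83 and 10.50. MEG3 was at 7.86 in LV CORT replicate 6 (others 6.49 to 7.09) and at 7.47 in IVS Control replicate 7 (others 6.57 to 6.92). CDKN1C was at 12.51 in LV CORT replicate 2 (others 11.52 to 11.95). DIRAS3 was at 7.49 in LV Control replicate 5 (others 6.40 to 6.85). The MEG3 probe was well above background on only 7 of 16 LV and 8 of 16 IVS arrays, and the DIRAS3 probe on 5 of 16 LV arrays. No group of the PEG10 probe was among them. The difference between tissues in the effect of CORT was tested for the 11 listed genes bright enough over all 32 arrays, and 0 had an unadjusted p under 0.05 in limma (lowest 0.141, MEG3, adjusted p 1.00).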

How the results depend on the processing

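The LV difference of PEG10 kept its direction in all 13 alternatives and in all 16 fits without 1 lamb (0.25 to 0.38). This contrast named the probe and these fits share its arrays, so the kept direction is no support for the difference. The IVS difference turned to -0.033 without the 3 brightest arrays, and passed at an unadjusted p only without slide 5 (0.70); without 1 lamb it stayed between 0.21 and 0.38 (limma p 0.0524 to 0.238). The IVS minus LV difference missed the adjusted threshold in 9 alternatives (-0.28 to -0.11) and without 1 lamb (-0.30 to -0.20).

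The LV count of 444 probes moved to 725 with arrays weighted by quality and to 76 with no normalization between arrays, and lay between 298 and 603 without 1 lamb. The IVS count of 419 moved to 879 with slide as a block, 64 with no normalization between arrays, 193 without slide 3, 1451 without slide 5 and 241 without the 3 brightest arrays. Without 1 lamb it lay between 228 and 852. It changed by more than 1.5 times on leaving out any of 5 IVS Control lambs. It fell to 261, 253 and 228 without replicate 1, 2 and 3, and rose to 708 and 852 without replicate 5 and 8. Of the imprinted genes in the IVS, 1 passed on its brightest probe with slide as a block (MEG3, -0.20, limma p 0.0401) and 1 without slide 5 (IGF2R, -0.50, limma p 0.0391). The cause of these moves was not tested.

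Replicate numbers were not taken to pair the samples, since a correlation above 0.1 was asked of every same-numbered pair and found in 3 of 8 LV and 6 of 8 IVS pairs, and across tissues in 2 of 8 Control and 5 of 8 CORT pairs. With replicate number as a block, the PEG10 difference stayed at 0.33 in the LV (SE 0.099) and 0.31 in the IVS (limma p 0.147), the counts were 536 and 639 probes, and IVS minus LV had a limma adjusted p of 0.0992. Of 8 numbers, 2 in the LV, 1 in the IVS, 2 in Control and 4 in CORT lambs across tissues correlated best with their own. Leaving out a slide or the brightest arrays, no normalization and quantiles averaged before the logarithm were chosen after seeing the data.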
